A study of Drosophila melanogaster with 2 samples.

Results

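The nuclear genes of oxidative phosphorylation were examined at their promoters for peaks of a GFP-tagged DNA-binding protein in Drosophila melanogaster embryos. Genes were taken by symbol: protein-coding genes of the nuclear chromosome arms in the Ensembl annotation whose symbol begins with ND-, Sdh, UQCR, COX or ATPsyn, together with RFeSP, Cyt-c1 and Cyt-c-p. This rule gave 91 of 13968 protein-coding genes, namely 40 genes of complex I, 8 of complex II, 11 of complex III, 16 of complex IV, 15 of complex V and the electron carrier Cyt-c-p. The rule goes by names, so subunits that carry other symbols (blw, levy and cype, for example) and the subunits encoded by mitochondrial DNA were not counted, while an assembly factor of complex II, Sdhaf3, was.

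The assay was transcription factor ChIP-seq on whole embryos aged 0 to 16 hours, with males and females pooled, in 2 biological replicates from separate biosamples of 1 group. The embryos carried a stable transgene in which GFP is fused to the C terminus of CG9437, an insertion that the labels assign to hng1, a gene of the MADF-BESS family of DNA-binding proteins. Chromatin was sonicated to fragments of 200 to 800 bp. A free-text label calls both samples an input control, whereas their assay and antibody labels and the kind of files describe a transcription factor ChIP, and they were treated as such. There was no other genotype, stage or treatment, so conditions could not be compared, and whole embryos do not show in which cells a promoter was occupied.

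Complex I takes electrons from NADH and complex II from succinate. Both pass them by way of ubiquinone to complex III, from which cytochrome c carries them to oxygen at complex IV, and the proton gradient built on the way drives ATP synthesis at complex V. Most subunits of complexes I, III, IV and V and every subunit of complex II are encoded in the nucleus, so their supply depends on many separate promoters. Several subunits of the fly have a duplicated copy, written with an L after the name, and many such copies are known for expression in the testis.

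The sequences that follow show what lay under the summits of 9 of these promoters, chosen from the strongest peaks of a complex and from summits that hold one of the searched words. Each is read from the dm6 reference in the direction of the gene, and capitals mark a match, on either strand, to ACGTAA (SdhC, ATPsynbeta, RFeSP), TTATGTAA (COX6B), TATCGATA (ND-B14.5B) or GGTCACAC (ATPsynC, Cyt-c-p, ND-PDSW). COX7B is shown as a strong summit with none of these words in the window printed, although ACGTAA occurs within 100 bp of it. Windows that would have entered a transcript are given as 30 bases around the word, and the others reach 50 bp to each side of the summit. The coordinates are chr2L:3145737-3145766 (minus strand) for ND-B14.5B, chr2L:3466069-3466098 (plus) for ND-PDSW, chr3R:11209999-11210099 (minus) for SdhC, chr2L:1614036-1614065 (minus) for RFeSP, chr3L:17425304-17425404 (plus) for COX7B, chrX:19743880-19743909 (minus) for COX6B, chr4:1031729-1031758 (plus) for ATPsynbeta, chr3R:31219720-31219820 (minus) for ATPsynC and chr2L:16719816-16719916 (plus) for Cyt-c-p.
ND-B14.5B: cgcTATCGATAgctgagagttctgccagtg
ND-PDSW: gagcgaagccaGTGTGACCgcagtgtgcca
SdhC: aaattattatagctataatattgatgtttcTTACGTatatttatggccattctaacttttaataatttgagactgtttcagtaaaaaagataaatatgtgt
RFeSP: cgtgtcgcgtgcTTACGTcagaggcggagc
COX7B: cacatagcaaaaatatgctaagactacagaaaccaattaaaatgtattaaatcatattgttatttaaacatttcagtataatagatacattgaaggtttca
COX6B: gatccccagggTTACATAAgtcaccgcccg
ATPsynbeta: gcggtaacaacaACGTAAgtccacattatg
ATPsynC: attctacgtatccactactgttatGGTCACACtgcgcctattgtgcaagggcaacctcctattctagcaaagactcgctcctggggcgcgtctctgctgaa
Cyt-c-p: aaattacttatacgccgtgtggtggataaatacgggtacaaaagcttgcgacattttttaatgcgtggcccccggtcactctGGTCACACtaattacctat

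A gene was counted as having a peak when a summit lay within 500 bp of any of its transcription start sites (TSS). The authors' final list holds 6091 peaks, which are the strongest of 30000 pooled candidates, with a signal of 148 or more. Each replicate list also holds 30000 candidates. The signal is the authors' own value per peak, is not scaled between lists and is used here to rank peaks within a list. A replicate value is that of the strongest candidate at the promoter, and it need not be at the same base. A replicate 1 candidate lay within 100 bp of the final summit at 26 of the 30 members, against 3410 of the 3511 protein-coding genes with a final summit, and a replicate 2 candidate at 27, against 3324. The exceptions were ND-24, ND-30, SdhC and ATPsynCF6 in replicate 1 and UQCR-C1, COX6B and Cyt-c-p in replicate 2. Read depth was unknown, so a missing candidate says only that none was listed.

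Of the 91 oxidative phosphorylation genes, 30 had a final summit at a promoter, a share of 33.0% (exact Clopper-Pearson 95% interval 23.5% to 43.6%), against 25.1% of all protein-coding genes. The interval counts genes, which are not replicates, and under this rule it includes the share over all genes. The member share was also 33.0% with a window of 250 bp, with the main TSS only and with a peak interval over a TSS. The shares over all genes were then 19.9%, 22.4% and 18.6%, below that interval. With the 3045 final peaks of higher signal the shares were close, 16.5% of members against 15.4% of all genes. No test was made. A pooled candidate of any strength lay at 57 of the 91 genes (62.6%, interval 51.9% to 72.6%), against 50.5% of all protein-coding genes. Among genes with a pooled candidate, 52.6% of the respiratory genes had a final summit, against 49.8% of all. A further 8 genes had a candidate in a replicate list alone, and 26 had none in any list.

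The final summits were spread over every complex. In complex I 13 of 40 genes had one (32.5%, interval 18.6% to 49.1%), in complex II 1 of 8 (12.5%, 0.316% to 52.7%), in complex III 5 of 11 (45.5%, 16.7% to 76.6%), in complex IV 5 of 16 (31.2%, 11.0% to 58.7%) and in complex V 5 of 15 (33.3%, 11.8% to 61.6%), and Cyt-c-p had one as well. All 5 intervals overlap and all include the share over all protein-coding genes, so the order of the complexes was not resolved. The gene's kind divided the set more sharply: the 30 genes with a final summit all came from the 66 canonical subunits (45.5%, interval 33.1% to 58.2%), and none came from the 20 L paralogs.

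**Figure D1:**
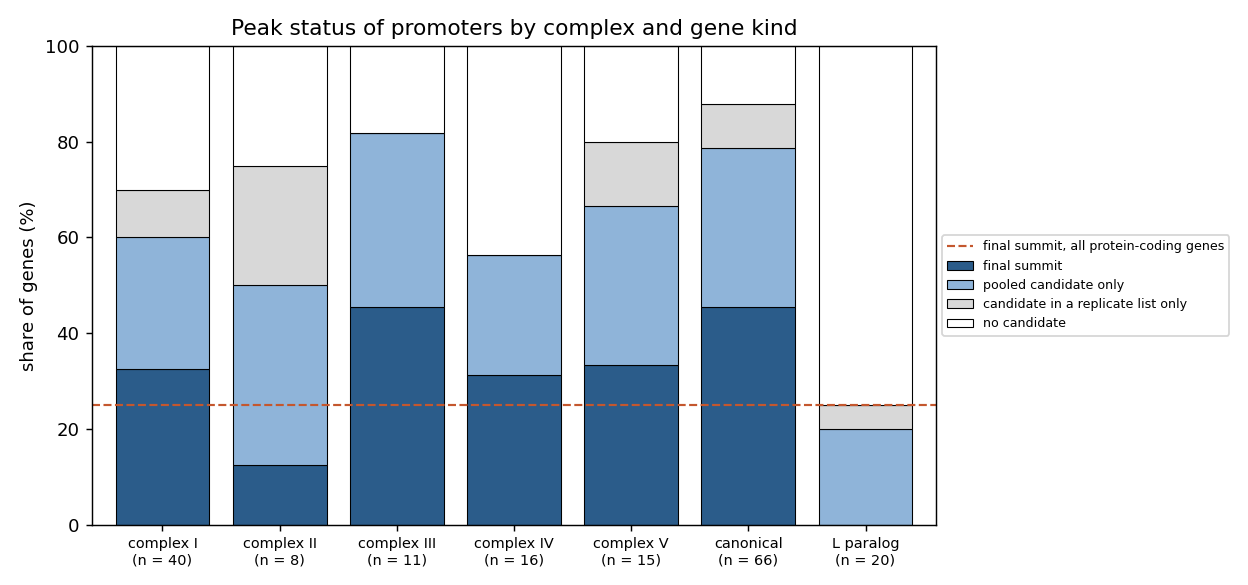
Share of genes (%, vertical axis) by the strongest evidence for a promoter peak, for the 5 complexes and, at the right, for canonical subunits and L paralogs over all complexes. The dashed line is the share of all protein-coding genes with a final summit (25.1%); the canonical bar reaches 45.5% and the L paralogs have no final summit.

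Complex I, the NADH dehydrogenase, had 13 genes in the final list, with signals of 150 to 589 and a median of 298. The strongest was ND-B14.5B, an accessory subunit, with a signal of 589 in the pooled list, 306 in replicate 1 and 283 in replicate 2. Its summit lay 5 bp downstream of a TSS, and no other protein-coding gene starts within 500 bp of it. ND-MNLL had 568 in the pooled list, 267 in replicate 1 and 321 in replicate 2, and it shares its promoter with CG45089 and p115. ND-42 had 530 in the pooled list, 328 in replicate 1 and 226 in replicate 2. These 3 accessory subunits stood at ranks 913, 974 and 1094 of the pooled list. The summit of ND-42 was nearer to Cchl (56 bp upstream) than to ND-42 (173 bp upstream), and Cchl encodes the lyase that attaches heme to cytochrome c.

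The other final peaks of complex I were weaker and again fell mainly on accessory subunits. ND-ASHI had a pooled signal of 477, from a summit 261 bp upstream both of its own TSS and of that of Fum1, the fumarase of the tricarboxylic acid cycle. ND-SGDH had 339, ND-18 had 306, ND-MWFE had 298 and ND-PDSW had 262. ND-15 had 172 and ND-B8 had 150, which placed ND-B8 at rank 5999, just inside the final list of 6091. The nearest member outside the final list was ND-23, with a pooled signal of 139 and rank 6560. The other pooled candidates of complex I outside the final list had signals of 42.1 (ND-13A) to 120 (ND-MLRQ), and 4 genes (ND-13B, ND-B14, ND-B15 and ND-B17) were listed in replicate 2 alone. ND-75, ND-20, ND-B12, ND-B16.6, ND-B14.5A and ND-B22 were canonical genes of the complex in no list.

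The 7 core subunits, most of which carry the flavin or iron-sulfur clusters or lie at the quinone site, were divided. ND-51, the flavin-binding subunit, had a pooled signal of 276, with 158 in replicate 1 and 118 in replicate 2. ND-24, an iron-sulfur subunit of the same module, had 256 in the pooled list and 109 in replicate 2, and replicate 1 listed no candidate at it. ND-30 had 210 in the pooled list, 103 in replicate 1 and 120 in replicate 2. ND-23 and ND-49, with 139 and 71.9, were pooled candidates outside the final list, and neither ND-75, the largest subunit, nor ND-20 had a candidate in any list. Thus 3 of 7 core genes had a final summit (42.9%), beside 10 of the 27 other canonical subunits of complex I (37.0%).

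ND-24 was the single final member that 1 replicate did not list. The nearest candidate summit of replicate 1 was 7152 bp away, whereas that of replicate 2 was 29 bp away. Such cases were rare in the series: 18 of the 6091 final peaks (0.296%) had no replicate 1 candidate within 500 bp and 20 (0.328%) had no replicate 2 candidate. Of the 18, 5 were as strong as the ND-24 peak or stronger, a count that includes the ND-24 peak itself.

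In complex II, the succinate dehydrogenase shared by the respiratory chain and the tricarboxylic acid cycle, SdhC had the final summit. This membrane anchor had a signal of 214 in the pooled list, 127 in replicate 1 and 94.1 in replicate 2. Its summit lay 200 bp upstream of SdhC and 198 bp upstream of the divergent gene Tctp, so the peak is ascribed to SdhC only under a rule that lets a summit count for several genes. The other 3 canonical subunits had pooled candidates below the final list: SdhD, the second anchor, had 121, SdhA, the flavoprotein, had 97.1, and SdhB, the iron-sulfur subunit, had 48.2. Sdhaf3 and SdhAL were listed in replicate 1 alone, and SdhBL and SdhCL in no list.

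Complex III, the cytochrome bc1 complex, had final summits at 5 genes, with a median signal of 250. UQCR-C2, a core protein, had 560 in the pooled list, 277 in replicate 1 and 301 in replicate 2. The other core protein, UQCR-C1, had 286 in the pooled list, 142 in replicate 1 and 163 in replicate 2. RFeSP, the Rieske iron-sulfur protein that hands electrons to cytochrome c1, had 250, 111 and 123 in the same 3 lists. UQCR-C2 was well above the rest, and the replicates kept it first among the genes of the complex. UQCR-14 had a pooled signal of 206 and UQCR-6.4 had 184. The 3 remaining canonical genes were candidates only: UQCR-11 had 67.3, Cyt-c1, the cytochrome c1 heme protein, had 62.1, and UQCR-Q had 44.4. Every canonical gene of the complex was therefore listed at some strength.

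Complex IV, cytochrome c oxidase, held the strongest peak of the set. COX7C, a small nuclear-encoded subunit, had a signal of 7159 in the pooled list, 3732 in replicate 1 and 3539 in replicate 2. It stood at rank 46 of the pooled list, rank 43 in replicate 1 and rank 46 in replicate 2, and the next member, ATPsynbeta, stood at rank 753. Its summit was 52 bp upstream of the nearer of the 2 annotated TSS of COX7C. It lay inside the gene as annotated, downstream of the other TSS. No other protein-coding gene starts within 500 bp, and the window of 50 bp to each side held 2 matches to ACGTAA. COX7B had 567 in the pooled list, 346 in replicate 1 and 216 in replicate 2. COX8 had 310 in the pooled list, 191 in replicate 1 and 117 in replicate 2. COX5A, with 256, and COX6B, with 154, also nuclear-encoded subunits, completed the final members of the complex. Among the other canonical subunits COX7A was a candidate with 55.8, and COX4 and COX5B had no candidate in any list.

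In complex V, the ATP synthase, the final summits covered both the catalytic head and the membrane part. ATPsynbeta, the catalytic subunit of the head, had 674 in the pooled list, 402 in replicate 1 and 276 in replicate 2, at rank 753. That summit was 108 bp upstream of the nearer of the 2 annotated TSS of ATPsynbeta and 1 bp downstream of the start of CG11076. It lay inside ATPsynbeta as annotated, downstream of the other TSS. ATPsynE, a membrane subunit, had 245 in the pooled list, 152 in replicate 1 and 90.9 in replicate 2. ATPsynCF6, a subunit of the peripheral stalk, had 204, 128 and 108 in the same lists. ATPsynbeta was well above these in each list. ATPsynF had a pooled signal of 176, and ATPsynC, the subunit of the rotating membrane ring, had 156, with 112 in replicate 1 and 54.3 in replicate 2. Candidates below the final list lay at ATPsynB (84.4), ATPsynO (73.6), ATPsyngamma (65.8) and ATPsyndelta (43.9), and ATPsynD and ATPsynG were each listed in 1 replicate alone.

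Cyt-c-p, the cytochrome c of somatic tissues, had a signal of 250 in the pooled list, 146 in replicate 1 and 118 in replicate 2. Its summit lay 66 bp upstream of the TSS, with no other protein-coding gene in reach, and at rank 3182 it was close to RFeSP at rank 3176.

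**Figure D2:**
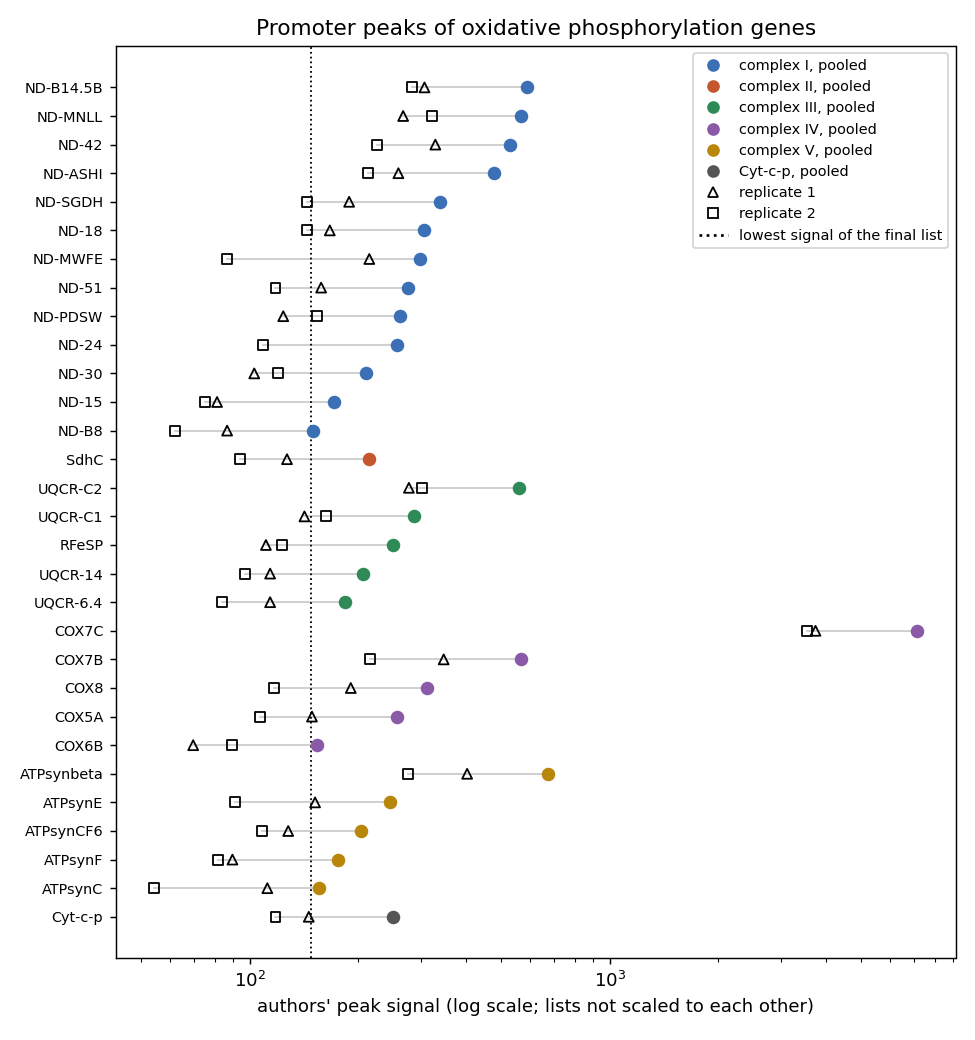
Signal of the strongest final promoter summit of 30 genes (horizontal axis, authors' peak signal, log scale), grouped by complex, with the pooled value as a filled circle and replicates 1 and 2 as a triangle and a square. COX7C (7159) stands apart from the other genes, which lie between 150 and 674; ND-24 has no triangle because replicate 1 listed no candidate there.

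Apart from COX7C, the peaks of the respiratory genes were spread over the final list. Their 30 final summits had a median signal of 259 (quartiles 207 and 443), against 310 (209 and 551) for the strongest final summit of each of the 3511 protein-coding genes that had one. The median rank was 3018 for the members and 2363 for all such genes. Ranks up to 1000 were held by 5 of the 30 members (16.7%), namely COX7C, ATPsynbeta, ND-B14.5B, ND-MNLL and COX7B, against 24.3% of all such genes. The median of the whole final list was 258, and 15 of the 30 members were among its 3045 peaks of higher signal, so the members stood near the middle of the list.

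L paralogs were absent from the final list under the 500 bp rule. None of the 20 had a final summit, and the exact upper bound of that share is 16.8%, below the 25.1% of all protein-coding genes. This did not hold in a window of 1000 bp, where 4 of the 20 had a final summit in reach (20.0%, interval 5.73% to 43.7%), against 28.5% of all protein-coding genes. For COX7CL, among these 4, the nearest final summit was that of its canonical partner COX7C, 919 bp away. With a peak interval over a TSS in place of a summit, 1 of the 20 had a final peak (5.00%), against 18.6% of all genes. The bound counts genes, which are not replicates, and no test was made. Pooled candidates were listed at 4 of the 20 (20.0%), against 52 of the 66 canonical subunits (78.8%) and 50.5% of all protein-coding genes. No candidate in any list was found for 15 of the 20, against 8 of the 66, and this share was not computed over all genes. The 4 candidates were weak: UQCR-6.4L had 80.0, COX7AL had 54.3, ATPsynbetaL had 43.7 and COX7AL2 had 43.0, below the lowest final signal of 148. The canonical partners of the first and the third had final summits (UQCR-6.4 with 184 and ATPsynbeta with 674). COX7AL and COX7AL2 correspond to COX7A, itself a weak candidate with 55.8. A further 4 genes with an L in the name but no base copy among the members (COX6AL, COX6AL2, COX6CL and ATPsynepsilonL) also lacked final summits, and COX6AL had a candidate of 41.9. SdhAL was listed in replicate 1 alone. The 15 L paralogs in no list were ND-49L, ND-20L, ND-B14.5AL, ND-24L, ND-51L1 and ND-51L2 of complex I, SdhBL and SdhCL of complex II, UQCR-14L and UQCR-11L of complex III, COX4L, COX5BL and COX7CL of complex IV, and ATPsynCF6L and ATPsynGL of complex V. Every L paralog of complex I was thus unlisted, whereas 24 of the 34 canonical genes of that complex had a pooled candidate.

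In the separate replicate lists the members kept much the same standing. Replicate 1 had a candidate at 54 members (59.3%), against 49.8% of all protein-coding genes, and replicate 2 at 53 (58.2%), against 50.4%. When the 6091 strongest candidates of a replicate were used, the share was 31.9% in replicate 1, against 25.1% of all genes, and 31.9% in replicate 2, against 24.6%. Both replicates placed 26 members (28.6%) among their strongest, against 21.0% of all genes. The 4 final members that missed this were ND-24, ND-B8, COX6B and ATPsynC. ND-B8 stood at rank 7763 and ATPsynC at rank 9192 in replicate 2, and COX6B at rank 7121 in replicate 1. ND-B8, COX6B and ATPsynC are also the weakest final members by pooled signal, and each of them lay beyond rank 6091 in 1 replicate list.

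**Figure D3:**
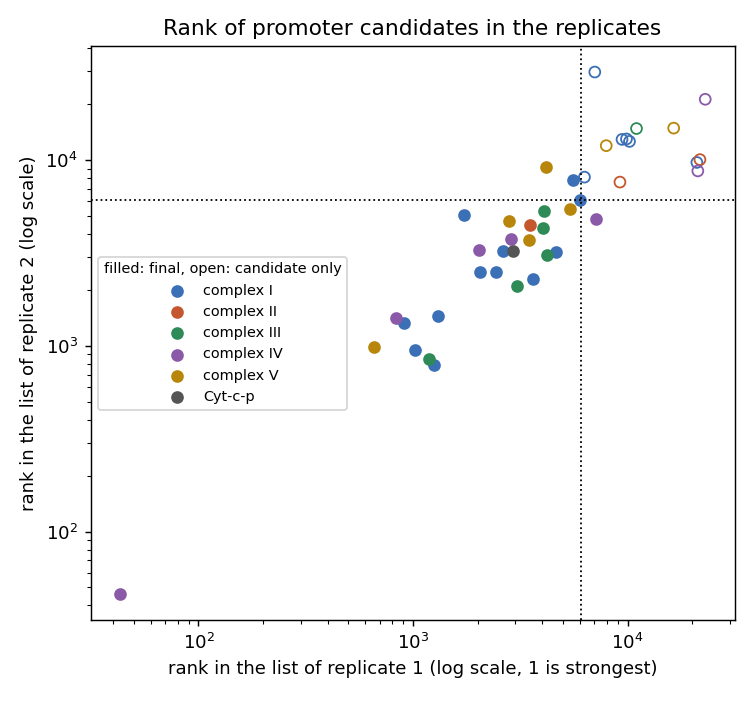
Rank of the strongest promoter candidate of each member in the lists of replicate 1 (horizontal axis) and replicate 2 (vertical axis), both log scales, for members listed in both. Filled circles are genes with a final summit and open circles are candidates only; dotted lines mark rank 6091, COX7C lies at ranks 43 and 46, and ND-B8, ATPsynC and COX6B lie beyond a dotted line.

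The median signed position of the member summits was less far upstream than that of all protein-coding genes with a final summit. A smaller share of the member summits lay upstream, and neither difference was tested. The median distance without regard to side was not compared. Of the 30, 20 were upstream of the nearest TSS of the gene (66.7%), against 83.9% of all protein-coding genes with a final summit. The median position, with upstream negative, was −72.5 bp for the members and −143 bp for all such genes. Within 100 bp of the TSS lay 13 member summits (43.3%), against 31.5%. In complex III 4 of 5 summits were downstream, by 36 bp at UQCR-14, 48 bp at UQCR-C1, 55 bp at UQCR-C2 and 116 bp at RFeSP. In complex I 10 of 13 were upstream. The G+C content of the window of 50 bp to each side had a median of 32.7% in complex I, 46.5% in complex III, 32.7% in complex IV and 42.6% in complex V. Upstream of the TSS lay 80.0% of the summits of complex V and 60.0% of those of complex IV. Whether G+C content goes with position was not tested. Over all 30 members the median G+C content was 38.1%, with a range of 19.8% to 59.4%. The median was 32.7% over the 2489 distinct final summits at protein-coding promoters.

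**Figure D4:**
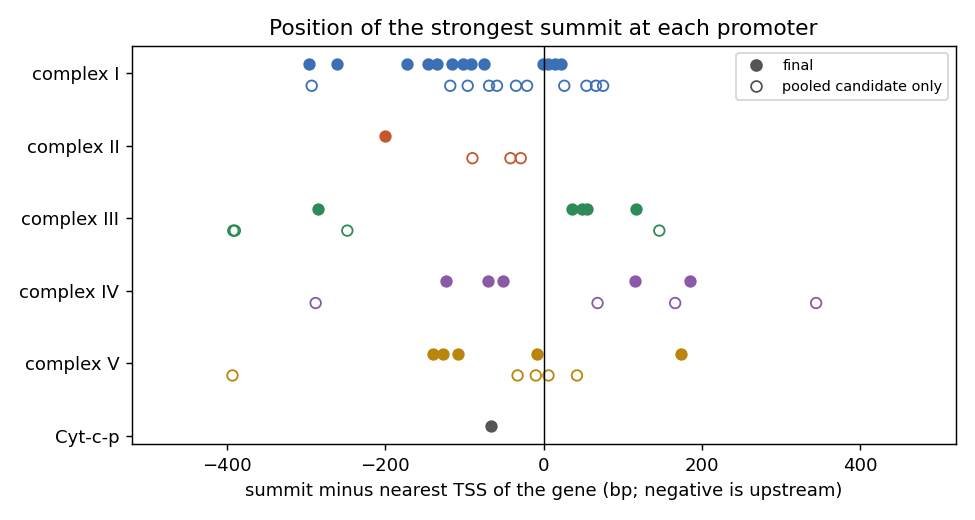
Distance of the strongest summit from the nearest TSS of the gene (bp, horizontal axis, negative is upstream) for genes of each complex, with final summits filled and pooled candidates that are not final open. The 4 final summits of complex III to the right of the line lie 36 to 116 bp downstream, whereas most of those of complex I lie to its left.

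Many of these promoters are shared. Another protein-coding gene had a TSS within 500 bp of the summit at 23 of the 30 members (76.7%), against 58.0% of all protein-coding genes with a final summit, and in complex I at 12 of 13. At 9 of the 30 the neighbour was nearer than the member: Cchl for ND-42, pcm for ND-18, TppII for ND-MWFE, msl-2 for ND-PDSW, Tctp for SdhC, CG42239 for UQCR-6.4, glo for COX5A, CG11076 for ATPsynbeta and Sec13 for ATPsynCF6. The member was nearest, or level with its neighbour, at the other 21 (70.0%), against 71.7% of all genes. Peaks give no direction, so a peak between divergent genes cannot be assigned to a gene. When each summit was given to its nearest TSS, 23 of 91 members kept a final summit (25.3%), against 19.3% of all protein-coding genes. The 7 members with no other gene in reach were ND-B14.5B, RFeSP, UQCR-14, UQCR-C2, COX7C, ATPsynC and Cyt-c-p.

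Short words were searched on both strands, at the 30 member summits (50 bp to each side) and in the promoters of all 91 members (250 bp before to 50 bp after the main TSS). ACGTAA, shown above for SdhC, ATPsynbeta and RFeSP, occurred at 5 member summits (16.7%, exact interval 5.64% to 34.7%), the others being COX7C and ATPsynF, against 11.7% of all final promoter summits. In promoters it was found at 12 members (13.2%), against 1257 of all 13968 protein-coding genes. The interval spans the share over all summits, and most member peaks had no such word in the window. With 100 bp to each side it was at 11 of the 30 (36.7%), COX7B now among them, against 18.2% of all summits. TTACGTAA and TTATGTAA, spellings of the element of nuclear respiratory genes known as NRG, each occurred at 1 summit. TTACGTAA, which contains ACGTAA, was at ATPsynF, against 0.522% of all summits, and TTATGTAA was at COX6B, against 1.33%. In promoters TTACGTAA was found at 0 of 91 members, against 0.458% of all protein-coding genes. TTATGTAA was in 3 member promoters (3.30%), against 2.21%.

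GGTCACAC, the core of the fly core-promoter element Motif 1, was examined next. It lay in the promoters of 18 members (19.8%), against 7.73% of all protein-coding genes, and in 17 of the 66 canonical subunits (25.8%). From 500 bp before to 100 bp after the TSS the shares were 20.9% of members and 9.81% of all genes. At summits it occurred at 3 members (ATPsynC, Cyt-c-p and ND-PDSW, 10.0%, interval 2.11% to 26.5%), against 2.05%. TATCGATA, the element bound by the replication and growth factor Dref, was in 10 member promoters (11.0%), against 9.09%, and at the summit of ND-B14.5B, against 3.62% of all summits. CATCNCTA, the core of the element Ohler 7, was in 9 promoters (9.89%), against 6.51%. TATAAA occurred at 3 summits (10.0%), against 22.7%, and in 49 promoters (53.8%), against 45.4%. CACGTG and GCGCATGC, of which GCGCATGC is the core bound by NRF-1 in mammals, were at no member summit, against 0.884% and 0.201% of all summits. A match describes the letters of a window and does not show that a factor binds there.

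Genes that work beside the respiratory complexes were also looked up by symbol, and the counts that follow stand beside shares over all protein-coding genes of 25.1% with a final summit and 50.5% with a pooled candidate. The lists are short and were not tested. Of 7 assembly factors found in the annotation, 2 had final summits: CIA30, which helps to assemble complex I, had a signal of 2963, and Cox17, the copper chaperone of complex IV, had 561. CIA30 was thus stronger than every member but COX7C, and its promoter is shared with CG7601. Of 12 genes of the tricarboxylic acid cycle and pyruvate dehydrogenase 6 had final summits, namely Idh3g (2105), Pdhb (498), Fum1 (477), mAcon1 (445), Scsalpha1 (339) and kdn (182), and 5 more were candidates. Of the 10 genes for the upkeep and transcription of mitochondrial DNA 5 had final summits, led by mTerf3 (885) and followed by TFAM (284), PolrMT (245), mtSSB (219) and mtDNA-helicase (185). Among 5 carriers porin, the channel of the outer membrane, had 552, and the shared promoter of the adenine nucleotide carriers sesB and Ant2 held a candidate of 108 outside the final list. Among 6 regulators tied to respiratory genes Dref (551) and CrebB (275) had final summits, and ewg, ERR and Myc had weaker candidates. The fly PGC-1 homologue srl had none in the pooled list or in replicate 1. Replicate 2 listed srl with 113, above its values for ERR (57.8), Myc (40.8) and ewg (33.4). Several other final summits also had another gene in reach: Dref (RpL13), porin (SmydA-3), Idh3g (CG4743), Pdhb (alpha-Man-Ib) and mAcon1 (CG43345 and CG43346). The same held for mTerf3 (CG5104), TFAM (CG5412) and PolrMT (CG14339). The Fum1 summit is the one counted above for ND-ASHI.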

How the data were processed

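Whole-embryo ChIP-seq of 2 biological replicates was used. The authors deposited peak lists in dm6 with a signal value per peak; per manifests that accompany the samples, the lists were made from the alignments of the replicates with 1 shared control alignment. Candidates were called per replicate and on the pooled replicates, and the final list keeps those that pass IDR. Aligner, peak caller and IDR threshold: not given in the sources used here. Read depth is unknown. The final list equals the 6091 pooled candidates of highest signal.

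Summits within 500 bp of a TSS of Ensembl release 115 were assigned to genes with Python 3.11.15 and numpy 2.4.6; intervals are exact Clopper-Pearson 95% intervals (scipy 1.17.1) and cover counting over genes only. Figures used matplotlib 3.10.9. A replicate candidate matched a final summit within 100 bp. Assignment was tested on planted peaks. With 1 group no test was made. Members, lists, words and the rule for named genes (every member with a final summit, the strongest candidates, core complex I, and members next to the final threshold) were chosen with earlier results of these data known. Alternatives were other windows, nearest or main TSS, peak intervals, the 3045 peaks of higher signal, each replicate alone and wider word windows.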

Additional observations from a re-analysis of the deposited data

How the results depend on the processing

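Of 105 alternatives over 32 results, 87 stayed within the exact interval of the reported share (for the median signal, within the spread of 21.8 between replicates) and 18 left it. These intervals are wide for small groups. With the 3045 final peaks of higher signal, 16.5% of the members had a summit, beside 15.4% of all protein-coding genes, and the shares were 22.7% of canonical subunits, 6.67% of complex V and 0% of complex II; complex III, at 18.2%, stayed inside its interval. Complex II was also at 0% with nearest TSS only and with final peaks found in both replicates, an alternative chosen after seeing the data, under which the members stood at 26.4% beside 23.7% of all genes. With a window of 1000 bp, 20.0% of L paralogs (COX4L, COX7CL, COX7AL2 and UQCR-6.4L) had a final summit in reach, beside 28.5% of all genes, complex II had 2 of 8 and complex IV 8 of 16 genes, and 69.2% of the members had a replicate 2 candidate. The share of all genes with a replicate 2 candidate was not computed at that window. Using the strongest candidates alone gave 31.9% for either replicate list, and using all pooled candidates gave a median signal of 154. With 100 bp to each side, ACGTAA was at 36.7% of member summits, beside 18.2% of all, TATAAA at 36.7%, beside 39.0%, CATCNCTA at 13.3%, beside 6.07%, and TATCGATA at 10.0%, beside 7.11%. In promoters from 500 bp before to 100 bp after the TSS, ACGTAA was at 28.6% of members beside 17.7% of all genes, TTACGTAA at 4.40% beside 0.952%, TTATGTAA at 11.0% beside 4.83% and TATAAA at 70.3% beside 65.8%. With neighbours sought within 250 bp, 56.7% of member summits had another gene in reach, and the share over all genes at that distance was not computed. Leaving out a replicate gave 31.9% of members (lowest and highest alike), 43.9% of canonical subunits, 25.0% to 31.2% in complex IV and 26.7% to 33.3% in complex V. The cause of these shifts was not tested. Without read depth or signal tracks, weak or absent peaks cannot be told from unsampled ones, and no list of another genotype was used here to set these peaks against.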

Other observations

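The members were scattered over the arms, and so were their final summits. Final summits lay at 6 of 13 members on X (46.2%, against 24.5% of all protein-coding genes there), 7 of 18 on 2L (38.9%, against 24.4%), 7 of 20 on 3R (35.0%, against 26.2%), 5 of 21 on 3L (23.8%, against 26.1%), 4 of 17 on 2R (23.5%, against 24.4%) and 1 of 2 on the fourth chromosome, ATPsynbeta, where 25.0% of all genes had one. The exact intervals of the member shares overlap, and that of X (19.2% to 74.9%) includes the share over all genes.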
